A study of Mus musculus with 16 samples.

Results

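The genes described here are the 5 canonical Notch ligands of the mouse (Dll1, Dll3, Dll4, Jag1 and Jag2), the 3 Fringe enzymes that modify the receptors (Lfng, Mfng and Rfng) and Pofut1, which makes the modification that Fringes extend. These 9 genes were taken by symbol from the 22096 gene symbols in the deposited tables, and each was represented by 1 RefSeq transcript. RNA was measured in endothelial cells sorted by CD31, a surface protein of endothelium, from whole mouse embryos at embryonic day 9.5. The 16 libraries carried 6 Notch1 genotypes, written here as the 2 alleles of an embryo. They were 12/- (3 libraries), 12/vg (1 library), +/12 (3), +/vg (3), +/- (3) and +/+ (3). The + allele is wild type and the - allele is a deletion. The vg allele has an amino acid change at a cleavage site, which makes the released intracellular fragment less stable. In the 12 allele the intracellular domain of Notch2 stands in place of that of Notch1. Endothelial development is labelled as normal in +/12, +/vg, +/- and +/+ embryos, as partly dysfunctional in 12/vg and as dysfunctional in 12/-. The 12/- and 12/vg embryos thus had no wild-type Notch1 allele, and all groups kept their other Notch genes as far as the labels say. The labels describe animals that carry these alleles and name no promoter or Cre that would limit an allele to the endothelium. How many embryos went into a library is not stated.

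Notch receptors are activated by ligands on a neighbouring cell. Dll1, Dll4, Jag1 and Jag2 are membrane proteins that bind the receptor and, once pulled into their own cell, allow the receptor to be cut and its intracellular domain to enter the nucleus. Dll3 is a divergent member that stays mostly inside the cell and does not activate receptors on neighbours. Pofut1 adds fucose to the repeats of the receptor in the endoplasmic reticulum, and the Fringes lengthen that fucose in the Golgi. Modification by Lfng or Mfng favours signalling from Delta-like ligands over Jagged ligands, whereas Rfng has been found to favour both in cell culture. In the early embryo Dll4 is the main arterial ligand and restrains vessel sprouting.

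The 10 endothelial markers examined, among them Pecam1 (which encodes CD31) and Cdh5, summed to between 842 and 1056 scaled FPKM in 12/- libraries, 1039 in 12/vg and between 763 and 1028 in the 12 libraries of normal genotypes. Sequence depth was 0.262 aligned gigabases in the 12/vg library and 0.189 in +/- replicate 2, against 1.11 to 1.80 in the other 14 libraries, so low values in these shallow libraries have the least precision. The deposited file names carry a number, which falls in a low range for 9 libraries and in a high range, well apart from it, for 7. All 12/-, 12/vg and +/12 libraries had low numbers and all +/+ libraries had high ones, while +/vg and +/- each had 1 low (replicate 3) and 2 high. The labels name no batch and do not say what the numbers mean, but a difference between 12/- and +/+ cannot be told apart from one between the number ranges. The comparison of 12/- with +/12 lies within the low range.

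Of the 9 genes, 8 had an upstream sequence in the RefSeq table used here (build GRCm38.p6, where the deposited tables use mm9), and Mfng had none. The 250 bases before the annotated start are shown for Jag2, the gene with the largest differences between genotypes, for Dll4, the most abundant ligand, and for Lfng, the one gene of the 8 whose window held either motif searched. They lie at chr12:112929496-112929745 on the minus strand (Jag2), at chr2:119325534-119325783 on the plus strand (Dll4) and at chr5:140607091-140607340 on the plus strand (Lfng). The motifs were TGGGAA, the core bound by the Notch partner RBPJ, and ACGTG, the core of the hypoxia response element, on both strands. Capitals mark their matches in the sequences, read 5' to 3' on the gene's strand.
Jag2: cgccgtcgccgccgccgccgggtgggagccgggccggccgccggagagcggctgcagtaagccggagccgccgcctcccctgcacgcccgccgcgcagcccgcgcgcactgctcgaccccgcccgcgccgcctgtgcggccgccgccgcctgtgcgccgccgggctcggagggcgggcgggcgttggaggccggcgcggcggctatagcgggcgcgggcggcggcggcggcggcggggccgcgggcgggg
Dll4: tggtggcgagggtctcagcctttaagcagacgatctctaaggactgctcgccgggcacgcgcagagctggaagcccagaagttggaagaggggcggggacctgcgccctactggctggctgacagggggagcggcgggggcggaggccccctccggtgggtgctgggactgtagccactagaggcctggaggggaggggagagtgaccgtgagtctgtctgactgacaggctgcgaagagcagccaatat
Lfng: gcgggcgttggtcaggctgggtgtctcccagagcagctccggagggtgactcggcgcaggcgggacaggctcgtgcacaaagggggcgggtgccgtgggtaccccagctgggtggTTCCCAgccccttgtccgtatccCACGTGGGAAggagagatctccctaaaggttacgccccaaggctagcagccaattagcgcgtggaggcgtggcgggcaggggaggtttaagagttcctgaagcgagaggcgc
In Lfng the RBPJ core lay 135 and 108 bases before the start and the hypoxia core at 112 and 111 bases, which are the 2 strands of 1 palindromic run that overlaps the nearer RBPJ core. These letters were found in 21.6% (TGGGAA) and 16.6% (ACGTG) of 32851 promoters of the same length, so a match is a common event. The Jag2 window was 87.2% G and C, against 65.6% for Dll4 and 66.0% for Lfng. Neither motif was found in these windows of Dll1, Dll3, Dll4, Jag1, Jag2, Rfng or Pofut1, which says only that the letters are not there.

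Expression is given as FPKM (fragments per kilobase of transcript, relative to the fragments mapped in a library) after a scaling between libraries, a level per length that can be compared between genes. Over the 16 libraries the order of the mean levels was Mfng (38.5 ± 7.06, SD, n = 16), Dll4 (9.41 ± 2.84), Jag2 (4.99 ± 2.87), Jag1 (2.68 ± 0.575), Dll1 (1.87 ± 0.780), Rfng (1.77 ± 0.688), Pofut1 (1.60 ± 0.423) and Lfng (1.15 ± 0.578). Dll3 was last, listed at 0 in 3 libraries and at no more than 0.391 in any. Mfng stood apart, since its lowest library (21.7) was above the highest library of Dll4 (17.6). Neighbours further down the order overlapped between libraries, and Dll1, Rfng, Pofut1 and Lfng differed from one another by less than their spread. The cells sorted by CD31 from these embryos thus held mostly Dll4 and Jag2 among ligand transcripts and mostly Mfng among Fringe transcripts, in every genotype.

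**Figure D1:**
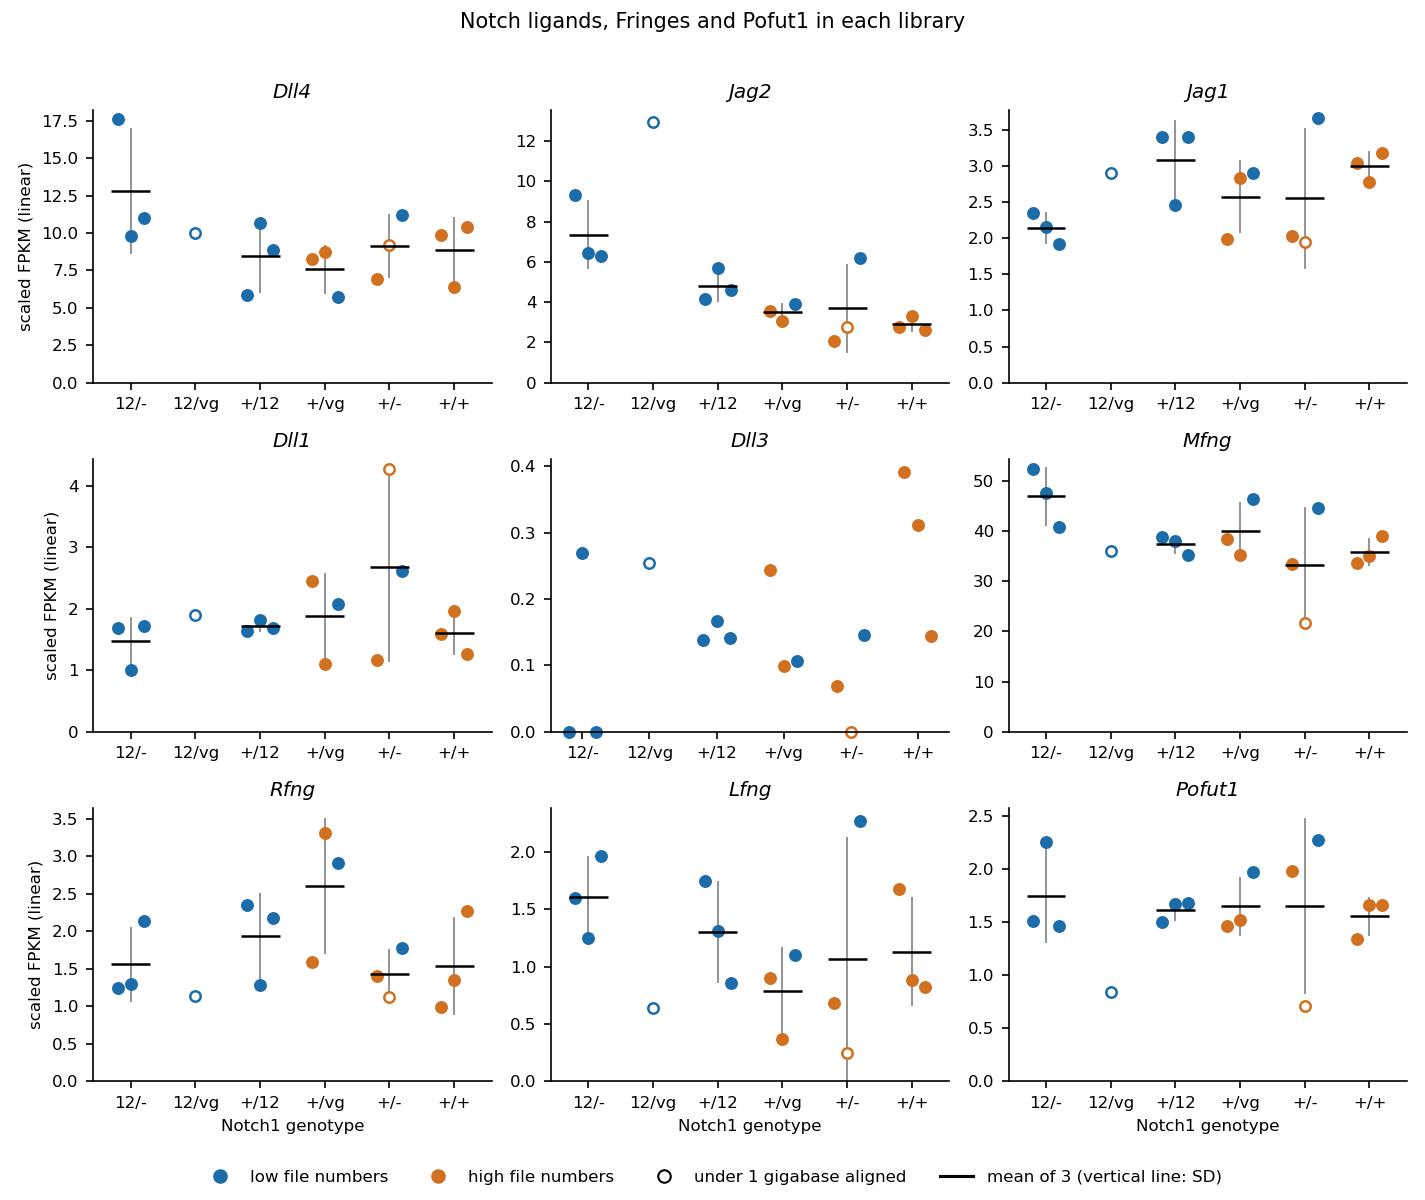
Scaled FPKM (y axis, linear) of each of the 9 genes in every library, by Notch1 genotype (x axis), with 1 point per library, the mean as a horizontal line and the SD as a vertical line (none for 12/vg, which is 1 library, and none for Dll3, which is listed at 0 in 3 libraries). Blue points are libraries with low file numbers, orange points those with high ones, and open points the 2 shallow libraries. Jag2 lies between 6.29 and 13.0 in the 12/- and 12/vg libraries and between 2.09 and 6.21 in the others.

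Testing was done with limma over all 10550 genes whose FPKM averaged 1 or more, 8 of the 9 among them, and a gene counts as called when its adjusted p was under 0.05. None of the 8 was called in any comparison. In 12/- against +/12, where embryos that carry a 12 allele differ in having or lacking a wild-type one, 0 of 8 were called, where 0.209% of all genes were, and 0 of 8 had an unadjusted p under 0.05 (5.30% of all genes). In 12/- against +/+, 0 were called (0.607% of all genes) and 1, Jag2, passed unadjusted (12.2% of all genes). Against +/-, 0 were called (0.569%) and Jag2 and Mfng passed unadjusted (11.7%). Against +/vg, 0 were called (0.445%) and Jag2 and Dll4 passed unadjusted (10.0%). Against the mean of the 4 normal genotypes, 0 were called (0.787%) and Jag2, Dll4 and Mfng passed unadjusted (11.5%). These comparisons share the 12/- libraries, so they are not independent of one another. The single 12/vg library against +/12 gave 0 calls (0.0664%) and 1 unadjusted pass, Jag2 (14.9%), with its spread assumed to be that of the other groups. Between normal genotypes limma called 0 of 8 in +/12, +/vg and +/- against +/+, as it called 0 of all genes (0%), and the unadjusted passes were 1 (Jag2), 0 and 0 (5.37%, 7.52% and 7.51% of all genes). The slope over wild-type Notch1 allele number (0, 1 or 2) gave 0 calls (0.0379%) and 1 unadjusted pass (14.5%), and the test of any difference among the 6 genotypes gave 0 (0.351%) and 1 (13.5%), Jag2 in both. The test of whether the 12/- minus +/12 difference departs from the +/- minus +/+ difference, added with results known, gave 0 calls (0.0474%) and 0 unadjusted passes (6.56%).

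Ranges of libraries without overlap were counted beside the test, as a description, with the share of all genes tested that showed the same in brackets. In 12/- against +/12, Jag2 and Mfng were higher in every 12/- library (7.93%) and Jag1 lower (6.84%). The same 3 genes were so placed against +/+ (10.4% higher and 9.46% lower). Jag2 alone was higher than every +/- library (7.74%), with none lower (6.41%), and Dll4, Jag2 and Lfng were higher than every +/vg library (10.2%), with none lower (10.5%). Against all 12 normal libraries at once, only Jag2 of the 8 was higher (1.91%) and none lower (0.929%). The single 12/vg library lay above the +/12 range for Dll1 and Jag2 (33.9%) and below it for Lfng, Rfng and Pofut1 (35.7%), which 1 library does often. Between normal genotypes, Jag2 was higher in +/12 than in +/+ (6.60%) with none lower (5.97%), while no member was placed apart in +/vg against +/+ (7.30% higher, 6.28% lower) or in +/- against +/+ (4.02% higher, 3.77% lower).

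Jag2 (chr12:114146801-114167706, mm9), a Jagged ligand, was the member with the largest differences. Its scaled FPKM was 9.33, 6.46 and 6.29 in the 12/- libraries and 13.0 in 12/vg. It was 4.15, 5.71 and 4.60 in +/12, 3.55, 3.04 and 3.93 in +/vg, 2.09, 2.78 and 6.21 in +/-, and 2.76, 3.30 and 2.62 in +/+. All 4 libraries without a wild-type Notch1 allele were thus above all 12 libraries of normal genotypes, a pattern shared by 69 of the genes tested (0.654%). The margin was small, since the lowest 12/- library stood at 6.29 and +/- replicate 3 at 6.21. Group means were 7.36 ± 1.71 in 12/- (SD, n = 3), 4.82 ± 0.801 in +/12, 3.51 ± 0.445 in +/vg, 3.69 ± 2.20 in +/- and 2.89 ± 0.360 in +/+.

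On the log2 scale Jag2 was higher in 12/- than in +/+ by 1.09 ± 0.25 (SE, 95% interval 0.54 to 1.64), which did not pass (limma adjusted p = 0.0902, 3 of 3 libraries above all +/+ libraries). The difference was 0.91 ± 0.25 against +/- (limma adjusted p = 0.163) and 0.88 ± 0.25 against +/vg (limma adjusted p = 0.215). Against +/12, in the same range of file numbers, it was 0.51 ± 0.25 (95% interval -0.04 to 1.06, limma adjusted p = 0.972), although the 3 libraries of each group did not overlap. In 12/vg Jag2 was higher than in +/12 by 1.27 ± 0.36 (limma adjusted p = 0.179). The slope over wild-type alleles was -0.67 ± 0.14 per allele (limma adjusted p = 0.0694), the 31st smallest p of the 10550 genes. The departure of the 12/- minus +/12 difference from the +/- minus +/+ difference was 0.34 ± 0.36 (limma adjusted p = 0.889), so a larger effect beside a 12 allele was not detected.

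File numbers moved with Jag2 as well. Among the 12 libraries of normal genotypes, the 5 with low numbers (3.93 to 6.21, mean 4.92) were all above the 7 with high numbers (2.09 to 3.55, mean 2.88), as was so for 0.626% of genes. Jag2 was alone among the 9 genes in this respect. The +/12 libraries were above all +/+ libraries (0.58 ± 0.25, limma adjusted p = 0.898), and that pair of groups is split entirely by the number range. Within the low range Jag2 was 6.29 to 9.33 in 12/- (mean 7.36, n = 3), against 3.93 to 6.21 in the 5 libraries of normal genotypes (mean 4.92). These ranges did not overlap, as was so for 4.72% of genes, and for Jag2 this follows from the 12/- libraries lying above all 12 normal ones. With the number range as a covariate, which only +/vg and +/- can estimate, the difference of 12/- from +/+ was 0.45 ± 0.29 (limma adjusted p = 0.844).

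Jag2 was called only under some alternatives. Without +/- replicate 3, the +/- library with the highest Jag2 and the one with a low file number, limma called Jag2 higher in 12/- than in +/+ (adjusted p = 0.0105), +/- (1.27 ± 0.18, adjusted p = 0.00739), +/vg (adjusted p = 0.0401) and the mean of the 4 normal genotypes (0.94 ± 0.13, adjusted p = 0.00383). With all libraries the difference from that mean was 0.85 ± 0.20 (limma adjusted p = 0.0825). Array weights, which give less weight to libraries that fit less well, also led to calls against +/+ (limma adjusted p = 0.0414) and against that mean (limma adjusted p = 0.0280). Of all 10550 genes, limma called 143 against +/+ with array weights and 77 without +/- replicate 3, where it called 64 as reported. The adjusted p of Jag2 against +/+ ranged from 0.0105 to 0.844 over 28 alternatives, and its difference was above 0 in all 28. With +/- replicate 3 left out, the difference from +/+ stayed at 1.09, and its SE fell from 0.25 to 0.16. The +/- group then held only libraries with high file numbers, so its difference from 12/- cannot be told apart from that between the number ranges.

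**Figure D2:**
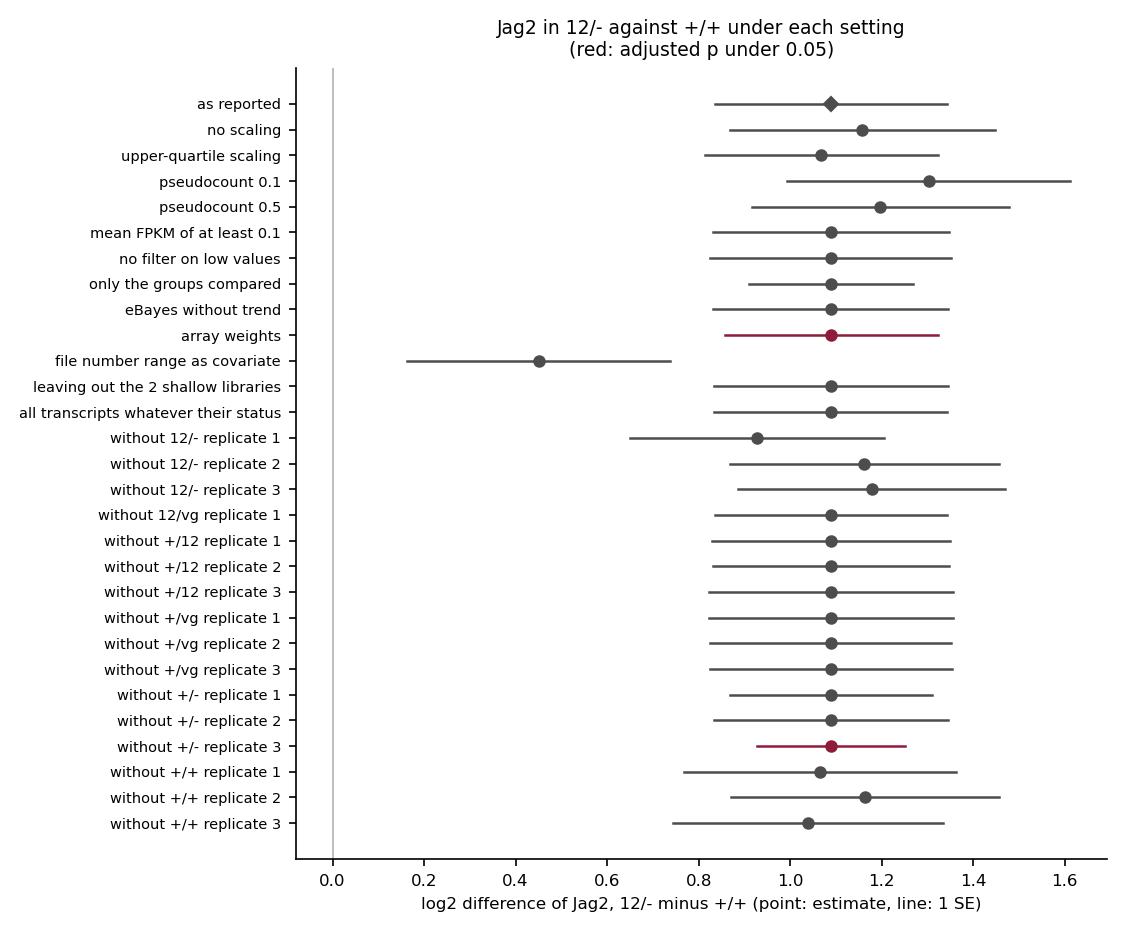
Log2 difference of Jag2 in 12/- minus +/+ (x axis) as reported and under each alternative (y axis), with the estimate as a point and 1 SE as a line on either side. The lowest value, 0.45, is that with the file number range as a covariate, and the 2 red points, array weights and leaving out +/- replicate 3, are those with a limma adjusted p under 0.05.

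In a bulk sample, more cells that make a transcript and more transcript per cell cannot be told apart. Lists of markers for other cell types were therefore read beside Jag2. The 12 neural markers summed to between 27.7 and 40.2 scaled FPKM in 12/- libraries, 43.1 in 12/vg and between 20.7 and 39.7 in the 12 normal libraries. Almost all of this was Nes, an intermediate filament gene (up to 41.0 in a library), and 1 of the 12 markers had a mean FPKM of at least 1. Nes was 38.1, 27.8 and 25.7 in 12/- and 41.0 in 12/vg, against 18.0 to 38.1 in the normal libraries, so 12/vg was the highest library for Nes as for Jag2. The normal library at 38.1 was +/- replicate 2, which is shallow like 12/vg and had 2.78 scaled FPKM of Jag2. It was not called, but passed unadjusted in 12/- against +/+ (0.49 ± 0.21, limma adjusted p = 0.396) and +/vg (0.47 ± 0.21, limma adjusted p = 0.488), in 12/vg against +/12 (0.83 ± 0.30, limma adjusted p = 0.255), in +/- against +/+ (0.47 ± 0.21, limma adjusted p = 0.663) and in the slope over wild-type alleles (-0.31 ± 0.11, limma adjusted p = 0.230). The 8 epithelial markers summed to between 22.7 and 44.2 in 12/-, 30.5 in 12/vg and between 8.18 and 75.6 in the normal libraries, so the ranges overlapped. Of these markers Krt19, a keratin gene, passed unadjusted in 12/- against +/+, +/-, +/vg and the mean of the 4 normal genotypes (1.53 ± 0.42 from that mean, limma adjusted p = 0.145) and in the slope. It was 3.49, 7.62 and 6.07 in 12/-, 0.374 in 12/vg and up to 6.72 in the normal libraries, so it was low in the library with the highest Jag2. Sums in the mesenchymal list were 19.8 to 35.8 in 12/-, 27.3 in 12/vg and 22.1 to 52.4 in normal libraries. Those of the erythroid list were 78.0 to 329 in 12/-, 24.8 in 12/vg and 91.5 to 242 in normal libraries, and those of the haematopoietic list 332 to 1393 in 12/-, 543 in 12/vg and 234 to 1801 in normal libraries. Almost all of the haematopoietic sum was Pf4 (225 to 1778 over the 16 libraries), which was above each endothelial marker in every library. Sums in the cardiomyocyte list were 18.1 to 25.2 in 12/-, 15.2 in 12/vg and 9.93 to 56.0 in normal libraries. Other markers also passed unadjusted in 12/- against the mean of the 4 normal genotypes. Hbb-bh1 of the erythroid list (1.61 ± 0.43, limma adjusted p = 0.124) and Tcf15 of the somite list (0.95 ± 0.38, limma adjusted p = 0.360) were higher. Pdgfrb of the mesenchymal list was lower (-0.67 ± 0.22, limma adjusted p = 0.248). Hbb-bh1 also passed against each normal genotype, but differed by -3.60 in 12/vg against +/12. It stood alone in its list, since 1 of the 4 erythroid genes tested was above 0 against that mean (median -0.16). In the same comparison 2 of 3 somite genes (median 0.02), 1 of 6 mesenchymal genes (median -0.23) and 3 of 6 epithelial genes (median 0.22) were above 0. Hbb-y, an embryonic globin, was the only gene called from any list described here, lower in 12/vg than in +/12 (-4.34 ± 0.64). That call rests on 1 shallow library, whose spread was assumed to be that of the other groups. The part of Nes, Krt19 or these cells in the Jag2 difference was not tested.

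Dll4 (chr2:119151520-119161402), the arterial ligand, had 17.6, 9.82 and 11.0 scaled FPKM in 12/- libraries and 9.97 in 12/vg. It had 5.85, 10.7 and 8.86 in +/12, 8.24, 8.76 and 5.70 in +/vg, 6.92, 9.22 and 11.2 in +/-, and 9.84, 6.40 and 10.4 in +/+. Replicate 1 of 12/- was the highest of all 16 libraries, and the other 12/- libraries lay within the range of the normal genotypes. That replicate also had the highest sum of the 10 endothelial markers (1056 scaled FPKM), and the part of this in its Dll4 level was not tested. Dll4 was higher in 12/- than in the mean of the normal genotypes by 0.53 ± 0.21 on the log2 scale (limma adjusted p = 0.359), and by 0.29 ± 0.23 (limma adjusted p = 0.922) without 12/- replicate 1. Against +/12 the difference was 0.54 ± 0.27 (95% interval -0.04 to 1.12, limma adjusted p = 0.970), and it was 0.30 ± 0.27 without 12/- replicate 1 and 0.32 ± 0.28 without +/12 replicate 1 (limma adjusted p = 1.00 for both). It was 0.67 ± 0.27 against +/vg (limma adjusted p = 0.405), 0.43 ± 0.27 against +/- (limma adjusted p = 0.542) and 0.47 ± 0.27 against +/+ (limma adjusted p = 0.502). Without 12/- replicate 1 these were 0.43, 0.20 and 0.23. The difference from +/- was 0.27 without +/- replicate 1, and that from +/+ was 0.27 without +/+ replicate 2. The +/vg libraries were all below the 12/- libraries. The Dll4 locus overlaps the predicted gene Gm14207, whose FPKM ran from 0 to 6.61 (median 1.38), and since no source used here states strandedness, reads of these genes may be shared.

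Jag1 (chr2:136907187-136942256), the Jagged ligand best known in arteries and smooth muscle, had 2.35, 2.16 and 1.92 scaled FPKM in 12/-, against 3.40, 2.45 and 3.40 in +/12 and 3.04, 2.78 and 3.18 in +/+. The 12/- libraries were below those of +/12 and of +/+ without overlap, with log2 differences of -0.37 ± 0.18 (limma adjusted p = 0.967) and -0.35 ± 0.18 (limma adjusted p = 0.466). Jag1 was 2.91 in 12/vg, 1.99, 2.83 and 2.91 in +/vg and 2.03, 1.95 and 3.67 in +/-, which overlapped with 12/-. Within the low file numbers Jag1 averaged 2.14 in 12/- (1.92 to 2.35), against 3.17 in the 5 normal libraries (2.45 to 3.67), without overlap, as was so in the lower direction for 4.09% of genes. With the number range as a covariate the difference from +/+ was -0.77 ± 0.22 (limma adjusted p = 0.412). Jag1 and Jag2 therefore lay on opposite sides of the +/12 and +/+ libraries in 12/-, although neither passed the limma test over all genes.

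Dll1 (chr17:15504318-15512787), which acts in somites, the neural tube and fetal arteries, was low and varied most in +/-. Its scaled FPKM was 1.68, 1.00 and 1.72 in 12/-, 1.90 in 12/vg, 1.64, 1.82 and 1.68 in +/12, 2.46, 1.11 and 2.08 in +/vg, 1.17, 4.27 and 2.61 in +/-, and 1.58, 1.97 and 1.27 in +/+. The highest value, 4.27, came from the shallow +/- replicate 2. All groups overlapped with 12/- in range, save 12/vg, which is 1 library, and the difference of 12/- from +/- was -0.50 ± 0.28 (limma adjusted p = 0.509), or -0.19 ± 0.26 (limma adjusted p = 0.854) without that library. It was -0.83 ± 0.24 (limma adjusted p = 0.187) without +/- replicate 1, the +/- library with the lowest Dll1.

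Dll3 (chr7:29078574-29086804), best known in the presomitic mesoderm, was barely detected. It was listed at 0, 0.270 and 0 in 12/-, at 0.254 in 12/vg, at 0.138, 0.166 and 0.142 in +/12, at 0.244, 0.0986 and 0.107 in +/vg, at 0.0685, 0 and 0.146 in +/-, and at 0.391, 0.311 and 0.144 in +/+. These values rest on at most 1305 aligned bases in a library, and Dll3 fell under the mean FPKM of 1 required for the test. With that limit lowered to 0.1 (14353 genes) limma did not call it in any comparison, the smallest unadjusted p being 0.0422 in +/- against +/+ (adjusted p = 0.644). Markers of presomitic mesoderm and somites were near 0 as well. Msgn1 was listed at 0 in 14 libraries and Ripply2 in 15, and the sum of the 12 such markers (22.8 to 29.5 in 12/-, 24.1 in 12/vg, 15.4 to 31.8 in normal libraries) came mostly from Tcf15 and Foxc2, which endothelium also expresses.

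Mfng (chr15:78586313-78603875) was the Fringe of these cells. Its scaled FPKM was 52.4, 47.5 and 40.7 in 12/- and 35.9 in 12/vg. It was 38.8, 37.9 and 35.2 in +/12, 38.4, 35.2 and 46.3 in +/vg, 33.4, 21.7 and 44.6 in +/-, and 33.5, 35.1 and 39.0 in +/+. The 12/- libraries lay above all +/12 libraries and above all +/+ libraries, and overlapped with +/vg and +/-. On the log2 scale the difference was 0.31 ± 0.20 from +/12 (95% interval -0.13 to 0.76, limma adjusted p = 1.00), 0.37 ± 0.20 from +/+ (limma adjusted p = 0.489) and 0.53 ± 0.20 from +/- (limma adjusted p = 0.336). Without the shallow +/- replicate 2, which had the lowest Mfng of all, this last difference was 0.27 ± 0.15 (limma adjusted p = 0.628). Without +/- replicate 3, which had the highest Mfng of the +/- libraries, it was 0.77 ± 0.18 (limma adjusted p = 0.0588). The normal libraries with low file numbers averaged 40.6 and those with high ones 33.8. With the number range as a covariate the difference of 12/- from +/+ was -0.14 ± 0.23, so its direction changed.

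Lfng (chr5:141083295-141091499), the Fringe of the segmentation clock, was low. Its scaled FPKM was 1.60, 1.25 and 1.96 in 12/-, 0.642 in 12/vg, 1.75, 1.31 and 0.857 in +/12, 0.902, 0.365 and 1.10 in +/vg, 0.685, 0.246 and 2.27 in +/-, and 1.68, 0.887 and 0.826 in +/+. The 12/- libraries were above all +/vg libraries (0.56 ± 0.32, limma adjusted p = 0.613) and overlapped with the other groups of 3. Over 28 alternatives the difference from +/vg ran from 0.04 to 1.03. The difference of 12/- from +/+ was 0.30 ± 0.32 as reported and ran from -0.48 to 0.51 over the alternatives. Normal libraries with low file numbers averaged 1.46 and those with high ones 0.80, with overlap. Of the 8 genes tested Lfng had the largest spread within groups, a residual SD of 0.41 on the log2 scale, above that of 85.9% of genes, and its lowest value rests on 104 aligned bases in +/- replicate 2.

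Rfng (chr11:120642059-120645518) had 1.23, 1.29 and 2.14 scaled FPKM in 12/- and 1.13 in 12/vg. Values were 2.34, 1.28 and 2.18 in +/12, 1.58, 3.31 and 2.90 in +/vg, 1.40, 1.12 and 1.78 in +/-, and 0.985, 1.35 and 2.27 in +/+. All groups of 3 overlapped. The largest differences were 0.50 ± 0.25 in +/vg against +/+ (limma adjusted p = 0.715) and -0.48 ± 0.25 in 12/- against +/vg (limma adjusted p = 0.584).

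Pofut1 (chr2:153067268-153095985), the fucosyltransferase on which all Fringe action depends, had similar mean levels in the genotypes with 3 libraries. It had 1.51, 2.26 and 1.47 scaled FPKM in 12/-, 0.842 in 12/vg, 1.50, 1.67 and 1.68 in +/12, 1.46, 1.53 and 1.97 in +/vg, 1.99, 0.713 and 2.27 in +/-, and 1.35, 1.66 and 1.66 in +/+. Its lowest values were those of the 2 shallow libraries. The 12/- group differed from the 4 normal genotypes by 0.04 to 0.09 on the log2 scale, and the interval of the difference from +/12 was -0.42 to 0.53, which leaves room for changes of moderate size. Over 28 alternatives the difference from +/+ ran from -0.30 to 0.17.

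**Figure D3:**
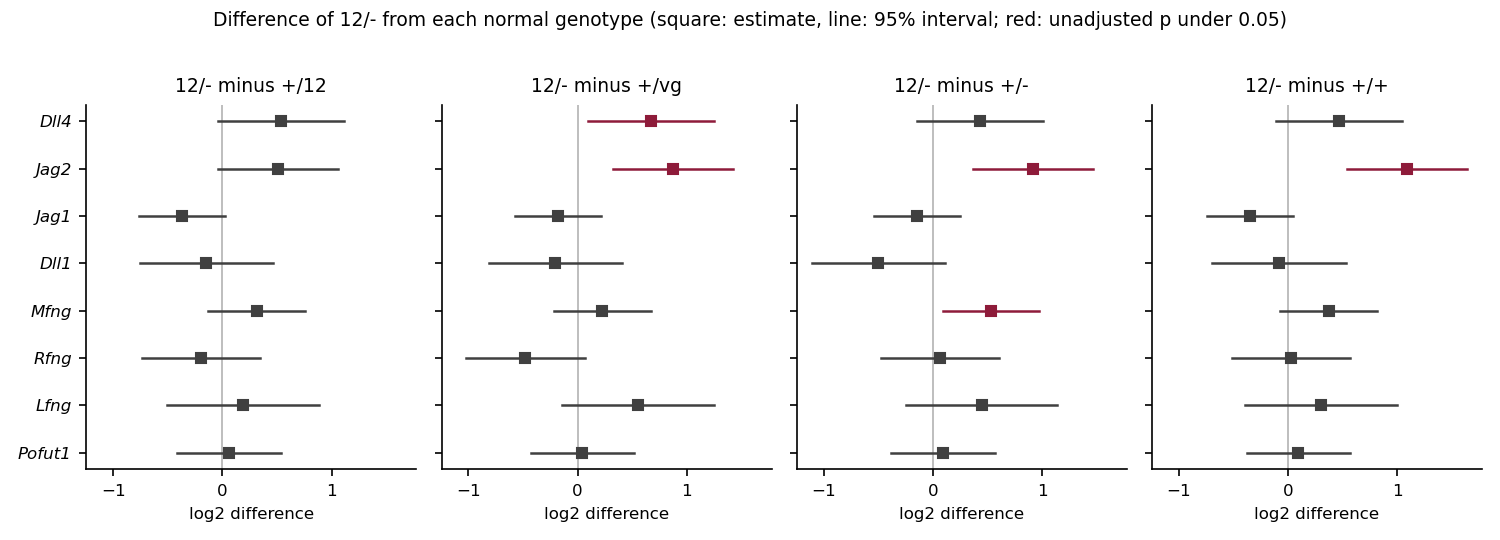
Log2 differences (x axis) of 12/- from each of the 4 normal genotypes for the 8 genes tested (y axis), with the estimate as a square and its 95% interval as a line, from limma. Red marks an unadjusted p under 0.05, which Jag2 reaches against +/vg, +/- and +/+ and not against +/12, and no difference has an adjusted p under 0.05.

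The make-up of the ligand transcripts was compared as shares of their summed scaled FPKM, as a description without a test. Dll4 was 53.1% ± 3.56 of the sum in 12/- (SD, n = 3), 35.6% in 12/vg, 45.7% ± 6.52 in +/12, 48.0% ± 8.48 in +/vg, 51.3% ± 4.70 in +/- and 52.8% ± 8.33 in +/+. Jag2 was 31.0% ± 1.57 in 12/-, 46.4% in 12/vg, 26.5% ± 1.59 in +/12, 22.5% ± 3.83 in +/vg, 19.4% ± 5.76 in +/- and 17.6% ± 4.12 in +/+. All 12/- libraries (30.0% to 32.8%) were above all 12 normal libraries (14.9% to 27.4%) in this share, with a wider gap than for the Jag2 level itself. The share also went with file numbers. It was 24.6% to 27.4% in the 5 normal libraries with low numbers and 14.9% to 22.3% in the 7 with high ones. All 12/- libraries had low numbers. Jag1 made up 9.23% ± 1.68 in 12/- (7.59% to 10.9%) and 10.4% in 12/vg, against 10.7% to 22.4% in the normal libraries, so the highest 12/- library and the lowest normal one overlapped. In 12/vg Jag2 exceeded Dll4, with a Dll4 to Jag2 ratio of 0.768, whereas the ratio was 1.52 to 1.89 in 12/- and 1.41 to 3.98 in the normal libraries. The summed ligand level was 19.7 to 31.0 scaled FPKM in 12/-, 28.0 in 12/vg and 12.3 to 23.9 in normal libraries. Among the Fringes, Mfng made up between 90.5% and 95.3% of the summed level in all 16 libraries.

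**Figure D4:**
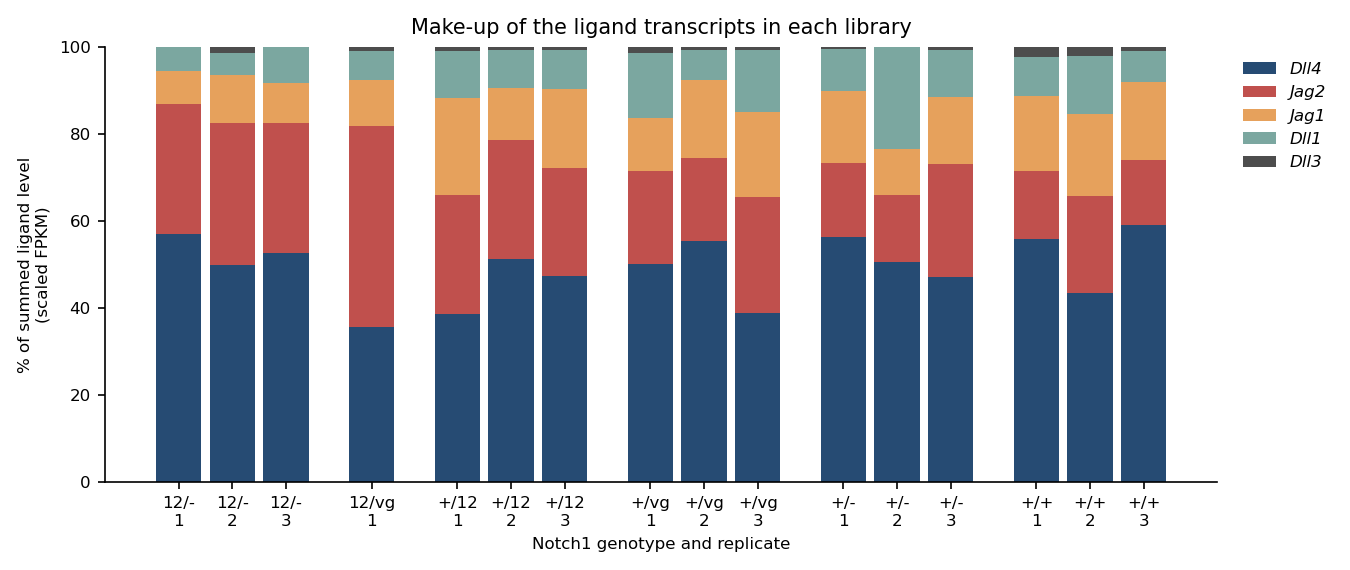
Share of each ligand in the summed scaled FPKM of the 5 ligands (y axis, %) in every library (x axis, genotype and replicate). Dll4 takes 35.6% to 59.1% of the sum, and the Jag2 share is 30.0% to 32.8% in 12/-, 46.4% in 12/vg and 14.9% to 27.4% in the other libraries. Among these others it is 24.6% to 27.4% with low file numbers and 14.9% to 22.3% with high ones.

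The rest of the pathway was read in the same fits. None of its lists had a called gene in any comparison, where limma called between 0% and 0.787% of all genes. Of the 4 receptors, Notch1 (14.5 to 23.3 scaled FPKM over the 16 libraries) and Notch4, a receptor largely limited to endothelium (7.98 to 20.7), were the most abundant, with Notch2 at 2.10 to 4.40 and Notch3 at 1.13 to 3.02. Notch4 had 20.7, 12.3 and 13.2 in 12/-, 11.4 in 12/vg, 9.54, 12.4 and 11.9 in +/12, 9.05, 10.1 and 10.3 in +/vg, 8.63, 10.7 and 14.7 in +/-, and 7.98, 11.1 and 8.93 in +/+. It was highest in 12/- replicate 1, as was Dll4, and its difference in 12/- from the mean of the normal genotypes was 0.50 ± 0.17 (limma adjusted p = 0.236). Notch2 differed by 0.31 ± 0.11 in that comparison (limma adjusted p = 0.314), Notch3 by 0.18 ± 0.15 (limma adjusted p = 0.706) and Notch1 by -0.16 ± 0.11 (limma adjusted p = 0.652). Notch2 was 3.39 to 4.37 in 12/-, 4.28 in 12/vg, 3.89 to 4.40 in +/12 and 2.10 to 3.41 in the libraries without a 12 allele, and its difference of 12/- from +/12 was -0.07 ± 0.15 (limma adjusted p = 1.00). In +/12 against +/+, Notch1 differed by -0.37 ± 0.15 and Notch2 by 0.39 ± 0.15 (limma adjusted p = 0.898 for both). The 12 allele carries Notch2 sequence in place of Notch1 sequence, and its part in the levels of both genes was not tested. Against that mean, the median difference of the 4 receptors was 0.24, that of the 8 tested genes described here (4 ligands, 3 Fringes and Pofut1) 0.22 and that of all genes was within 0.01 of 0. The 10 endothelial markers had a median of 0.22 as well, with 8 of 10 above 0 and 3 unadjusted passes, all higher. These were Pecam1 (0.50 ± 0.13, limma adjusted p = 0.107), Cdh5 (0.28 ± 0.12, limma adjusted p = 0.397) and Kdr (0.26 ± 0.10, limma adjusted p = 0.306), and the part of this shift in the differences of the Notch genes was not tested.

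Against that same mean, in which 11.5% of all genes passed unadjusted, the 4 tested genes for ligand ubiquitin ligases and endocytosis, among them Mib1, which ubiquitinates Notch ligands, had 0 unadjusted passes and a median difference of 0.09. The 7 tested sugar transferases and fucose supply genes other than the 9 described had 0 unadjusted passes and a median of -0.01. The 4 tested genes listed as non-canonical ligands and binding proteins (Dlk1, Egfl7, Mfap2 and Jagn1) had 0 passes and a median of 0.03. Jagn1 is like the Jagged ligands in name only and is not a Notch ligand, so that median is not one of ligands alone. The most abundant of the 4 was Egfl7, a secreted protein of endothelium (150 to 275 scaled FPKM). Of the 10 direct Notch targets tested, 1 passed unadjusted higher and 2 lower, with a median of -0.08. Of the 5 venous genes, 1 passed unadjusted, Ephb4, the receptor of the arterial ephrin (0.28 ± 0.12, limma adjusted p = 0.377), while Nr2f2, the venous regulator, differed by 0.01 ± 0.18, Nrp2 by 0.05 ± 0.12, Flt4 by 0.11 ± 0.19 and Aplnr by -0.18 ± 0.14.

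Genes whose log2 level went most closely with each of the 8 tested genes over the 16 libraries were listed among 9501 candidates, as a description that includes differences of depth and file number between libraries. Jag2 went with Plekhh1 (Pearson's r = 0.922), Spag7 (0.898) and Fxyd5 (0.897), Dll4 with Sema6b (0.888), Coro1c (0.864) and Cd97 (0.861), and Jag1 with Rab23 (0.769), Fndc3b (0.767) and Ube2cbp (0.763). Dll1 went with Nuak1 (0.855), Abcb10 (0.838) and Ppfibp1 (0.826). Mfng went with Eif3f (0.910), Tagln2 (0.897) and Actg1 (0.893), Lfng with Prr5 (0.844), Suv420h2 (0.843) and Fzd10 (0.829), and Rfng with Gcnt1 (0.826), Pard3b (0.821) and P2ry1 (0.820). Pofut1 went with Mtpn (0.897), Elk3 (0.876) and Ssr3 (0.874). Over deviations from the group means (15 libraries in groups of 3) the top genes for Jag2 were Btbd2 (0.938), Epb4.1l2 (0.930) and Tigd2 (0.907), none of which is in the first list.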

How the data were processed

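Each library has 1 table of 28107 RefSeq transcripts, in which the authors deposited FPKM, coverage and a status, per the file headers. The submitters' processing notes name TopHat2 2.0.9 and mm9. Read length, strandedness and the version of the tool that made the FPKM values are stated in no source used here. Deposited FPKM values are no counts, so count tests were not used. Coverage, the mean read depth over a transcript as the authors deposited it, divided by FPKM was 1 constant within a library and gives its aligned bases. Reads per gene were not recovered and no counting interval is printed.

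FPKM was summed over each symbol (Python 3.11.15, pandas 2.3.3). The 211 symbols with a transcript whose status was not OK were left out. Libraries were scaled by median ratios over 8610 genes, and the 10550 genes whose FPKM averaged 1 or more were fitted as log2(scaled FPKM + 1), which understates changes of low genes, with limma 3.58.1 in R 4.3.3 (eBayes with trend, two-sided), all 16 libraries in 6 groups. The slope over wild-type alleles was fitted as a line. Adjustment was by Benjamini-Hochberg over all genes tested. The fit was checked on simulated data. Since the labels do not separate embryos, p-values rest on differences between libraries that may be technical. The wild-type genotype is spelled in 2 ways in the labels and was taken as 1 group.

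Named were all 9 members, called genes of the other lists, all genes of the 2 lists of up to 6 genes, and the 3 genes most like each member by Pearson's r. For other genes of the longer lists only levels or examples chosen after their values were seen are given. The members, lists and tests were chosen with earlier results of these data known. Promoters are RefSeq windows of GRCm38.p6, searched for exact motif letters on both strands. Alternatives were other scalings, pseudocounts and filters, a fit of only the groups compared, eBayes without trend, array weights, the file number range as a covariate, leaving out the shallow libraries, all transcript statuses, and leaving out each library. The comparison of both differences, the fits of only the groups compared for it and for the mean of genotypes, the ranges within the low numbers and the likeness over deviations were added after seeing the data.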

Additional observations from a re-analysis of the deposited data

How the results depend on the processing

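No member was called as reported. With array weights 1 member, Jag2 each time, was called in 12/- against +/+, in 12/- against the mean of the 4 normal genotypes, in the slope over wild-type alleles and in the test of any difference among genotypes. Calls rose over all genes as well. In these 4 tests limma called 143, 249, 107 and 161 of 10550 genes with array weights, against 64, 83, 4 and 37 as reported. In 12/vg against +/12, which rests on 1 library, the Jag2 difference with array weights was 1.27. Leaving out 1 library at a time gave 0 to 1 called members in 12/- against +/+, +/-, +/vg and the mean of the normal genotypes and in the test of any difference, with 1 (Jag2) only without +/- replicate 3. Without that library limma called 77, 156, 50, 124 and 48 of all genes in these tests, against 64, 60, 47, 83 and 37 as reported. In the slope, leaving out 1 library gave 0 to 1, with 1 (Jag2, limma adjusted p = 0.0481) only without +/- replicate 2. The slope then called 53 of all genes, against 4 as reported. In 12/- against +/12, in the 3 comparisons with +/+ among normal genotypes and in the comparison of differences, all alternatives gave 0 called members. The cause was not tested. With the file number range as a covariate, Jag2 differed between 12/- and +/+ by 0.45 and between +/12 and +/+ by -0.06, and its slope was -0.38 per allele (limma adjusted p = 0.566), while its difference between 12/- and +/12 stayed at 0.51 because these groups share a range. Over all alternatives the difference of 12/- from +/12 ran from 0.35 to 0.64, above 0 in 28 of 28. No paired analysis was possible because the labels give no replicate numbers that pair libraries across genotypes. A fit of only the groups compared is the same fit for the slope and the test of any difference, which use all groups, and 12/vg against +/12 could not be fitted without its 1 library. Depth limits the low genes (Dll3, Lfng, Rfng, Pofut1) most in the 2 shallow libraries.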

Other observations

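Between the members themselves, Pearson's r of log2 level over the 16 libraries ran from -0.503 (Dll1 with Pofut1) to 0.663 (Mfng with Pofut1). Mfng went with Lfng at 0.653, Dll4 with Jag2 at 0.534 and Jag2 with Mfng at 0.505. Over deviations from the group means in 15 libraries, Mfng and Pofut1 had an r of 0.830, Mfng and Lfng 0.694, Jag1 and Mfng 0.651 and Dll4 and Jag2 0.482. The libraries share depth and file number differences, and these values are a description.

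Residual spread within genotypes also differed between members. It was 0.22 on the log2 scale for Jag1, above that of 41.6% of genes tested, 0.26 for Mfng and for Pofut1 (57.8% for each), 0.31 for Rfng (72.3%), 0.34 for Jag2 (76.5%), 0.35 for Dll4 (79.8%) and 0.36 for Dll1 (80.8%).

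The 7 libraries with a 12 allele all had low file numbers, so for Jag2 the allele and the number range cannot be told apart except through the 2 libraries with low numbers and no 12 allele, which had 3.93 and 6.21 scaled FPKM. Jag2 in the 7 ran from 4.15 to 13.0 scaled FPKM and the 9 without one from 2.09 to 6.21, the one above the lowest carriers being +/- replicate 3. The difference of +/12 from +/+ was -0.06 once the number range was in the fit and 0.58 without it.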
